A study of Homo sapiens with 6 samples.

Results

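A set of 9 miRNAs of blood cell lineages was examined on miRNA arrays of Panc-1 cells, as a reference for miRNAs that a carcinoma line should lack. They were taken by name among the 2565 miRNA probes of the array: hsa-miR-142-3p, hsa-miR-142-5p, hsa-miR-223-3p, hsa-miR-223-5p, hsa-miR-150-5p, hsa-miR-451a, hsa-miR-144-3p, hsa-miR-144-5p and hsa-miR-486-5p, written without the species prefix from here on. Each had a single probe and none of its spots was flagged by the scanner. Panc-1 is an established epithelial line from a human pancreatic ductal adenocarcinoma (PDAC). Total RNA of untreated Panc-1 cells (control, 0 ng/mL) was on 3 arrays, and RNA of Panc-1 cells treated with 10 ng/mL of the cytokine TGF-β over 72 h was on the other 3. TGF-β served in the study to induce the epithelial-mesenchymal transition. The labels do not say whether the 3 samples of a group were separate cultures, so p-values measure the spread between these samples, which may be technical. A slide held the arrays of a single group, so an effect of the slide cannot be told apart from that of TGF-β.

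The members are known from distinct blood lineages. miR-142 is made in nearly all cells of haematopoietic origin, miR-223 in granulocytes and monocytes, and miR-150 in mature lymphocytes. miR-144 and miR-451a are cut from a shared erythroid transcript that the transcription factor GATA1 activates, and miR-451a is matured by the Argonaute-2 protein and not by the nuclease Dicer. miR-486-5p is abundant in red blood cells and is also known from muscle. A mature miRNA guides Argonaute to target RNAs through its seed, bases 2 to 8, and most precursors give a 5p and a 3p arm.

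Mature sequences from RefSeq (GRCh38.p14) were at hand for 6 of the 9 members. They are shown, 5′ to 3′ with the seed in capitals, because the seed tells which other miRNAs share their targets and because base composition is set against detection further on.
miR-142-3p: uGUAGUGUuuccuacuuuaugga
miR-142-5p: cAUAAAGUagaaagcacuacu
miR-223-3p: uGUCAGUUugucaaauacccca
miR-223-5p: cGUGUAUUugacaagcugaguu
miR-144-3p: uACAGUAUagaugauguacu
miR-144-5p: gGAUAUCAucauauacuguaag
The set of sequences used here held no entry for the other 3 members, miR-150-5p, miR-451a and miR-486-5p. The 6 seeds all differed, and 1 of them was shared with another RefSeq miRNA, miR-5590-3p, which has the seed of miR-142-5p. miR-5590-3p was detected on 0 of the 6 arrays. Among the 2253 miRNA probes with a sequence, the closest other miRNA differed from each of the 6 at 8 or more positions. Sequences were aligned from the 5′ end without gaps.

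The genes lie at 5 places of GRCh38.p14, while the array files name no build. MIR142 is on chromosome 17 from 58331232 to 58331318, inside the lncRNA genes MIR142HG and TSPOAP1-AS1. MIR223 is on chromosome X from 66018870 to 66018979, inside the lncRNA gene MIR223HG. MIR150 is on chromosome 19 from 49500785 to 49500868 and overlaps no other annotated gene. MIR451A (chromosome 17, 28861369 to 28861440) and MIR144 (28861533 to 28861618) are 92 bp apart, inside the lncRNA gene LOC124903966. miR-486-5p comes from a pair of overlapping genes, MIR486-1 and MIR486-2, on chromosome 8 inside ANK1, the gene of a membrane skeleton protein of red blood cells.

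The measurement was the median intensity of each spot in 1 colour, on a linear scale without normalization. Each array had 320 blank spots. A miRNA was called detected on an array when its signal exceeded the limit, the mean of the blank spots plus 2 SD, with 5% of the blank spots left out at each end. The same limit decides which values are given in the table the authors deposited. The blank means were 18.2 to 21.3 intensity units and the SDs 0.528 to 0.768 units, which put the limits at 19.5 to 22.8 units. Between 1531 and 1787 miRNAs per array passed.

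Of the 9 members, 5 were detected throughout at least 1 group, that is, on all 3 of its arrays. The same was true of 56.8% of all 2565 miRNA probes, so the members' share was close to that of the array as a whole. On all 6 arrays 3 members were detected, compared with 50% of all probes. No member stayed below the limit on every array, while 20.4% of all probes did. The members fell into 2 with a clear distance from the limit, miR-486-5p and miR-150-5p, and 7 that lay around it.

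miR-486-5p lay above the limit by 24.2, 32.6 and 24.8 SDs of the blank spots on control arrays 1, 2 and 3, and after TGF-β the distances were 20.8, 24.2 and 20.1 SDs in the same order. Its signals were 32.6 to 41.9 intensity units, and in the table the authors deposited it had means of 77.3 ± 13.6 (SD, n = 3) for control and 62.3 ± 3.51 (SD, n = 3) for TGF-β. No array had it near the limit, and no blank spot of any array was as bright. The mean distance was 27.2 ± 4.68 SDs (SD, n = 3) in control cells and 21.7 ± 2.20 SDs (SD, n = 3) after TGF-β. In SDs, TGF-β array 2 was level with control array 1. The blank SD differed between these arrays, and their signals exceeded the limit by 12.8 units (TGF-β array 2) and 15.8 units (control array 1).

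miR-150-5p exceeded the limit by 10.3, 12.5 and 10.5 SDs in control cells, whereas the TGF-β arrays gave 16.1, 17.5 and 11.3 SDs. Its signals were 26.3 to 31.3 units, and its deposited means were 34.7 ± 3.79 (SD, n = 3) for control and 44.3 ± 8.08 (SD, n = 3) for TGF-β. The lymphocyte miRNA was thus detected on all 6 arrays, with no blank spot as bright on any of them. In these distances, whose unit differs between arrays, TGF-β arrays 1 and 2 were above all control arrays and TGF-β array 3 was among them. By signal, TGF-β array 2 (29.1 units) was below control array 3 (30.9 units).

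miR-142-3p was the other member detected on all 6 arrays, at distances of 2.21, 0.15 and 8.08 SDs without TGF-β and of 4.58, 1.89 and 2.98 SDs with it. Control array 3 was far above the other control arrays, and on control array 2 the signal was 0.0932 units above the limit. Within its block, the brightest of the spots adjoining the probe gave 4654 to 6592 intensity units over the arrays, and 6231 units on control array 3. Other members also had bright neighbours. For miR-144-5p the brightest adjoining spot gave 1734 to 2553 units, for miR-223-5p 549 to 796 units and for miR-144-3p 488 to 716 units. For miR-486-5p it gave 85.6 to 125 units and for miR-150-5p 55.8 to 72.3 units, while the other members had 19.5 to 93.6 units beside them. The part of the neighbours in these signals was not tested.

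miR-451a, the erythroid miRNA, was at -2.27, 1.89 and 1.21 SDs without TGF-β, compared with 3.44, 5.30 and 0.252 SDs with it. It was detected on 2 control arrays and all TGF-β arrays. miR-223-3p, the main arm of the myeloid miRNA, was at -0.681, -1.57 and 1.64 SDs without TGF-β, compared with 2.60, 0.233 and 0.637 SDs with it. Both passed the rule through the TGF-β arrays, and both overlapped between the groups.

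The 4 remaining members failed the rule in both groups. miR-142-5p was at -1.58 to 2.16 SDs and was detected on 2 arrays, control array 1 and TGF-β array 2. miR-144-3p was at -1.52 to 1.67 SDs and miR-144-5p at -3.05 to 2.29 SDs, each on 3 arrays. miR-223-5p was at -2.50 to 1.58 SDs and passed on 1 array, TGF-β array 2. The arrays that passed were not the same for the arms of a precursor: miR-144-3p was detected on control array 1 and TGF-β arrays 2 and 3, and miR-144-5p on control array 2 and TGF-β arrays 1 and 2.

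The number of members detected was 5 on each control array and 6, 9 and 6 on TGF-β arrays 1, 2 and 3. TGF-β array 2, on which all 9 passed, also had the smallest blank SD (0.528 units, compared with 0.622 to 0.768 on the others) and the most miRNAs detected (1787, compared with 1531 to 1604). The part of the blank spread in these counts was not tested.

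**Figure D1:**
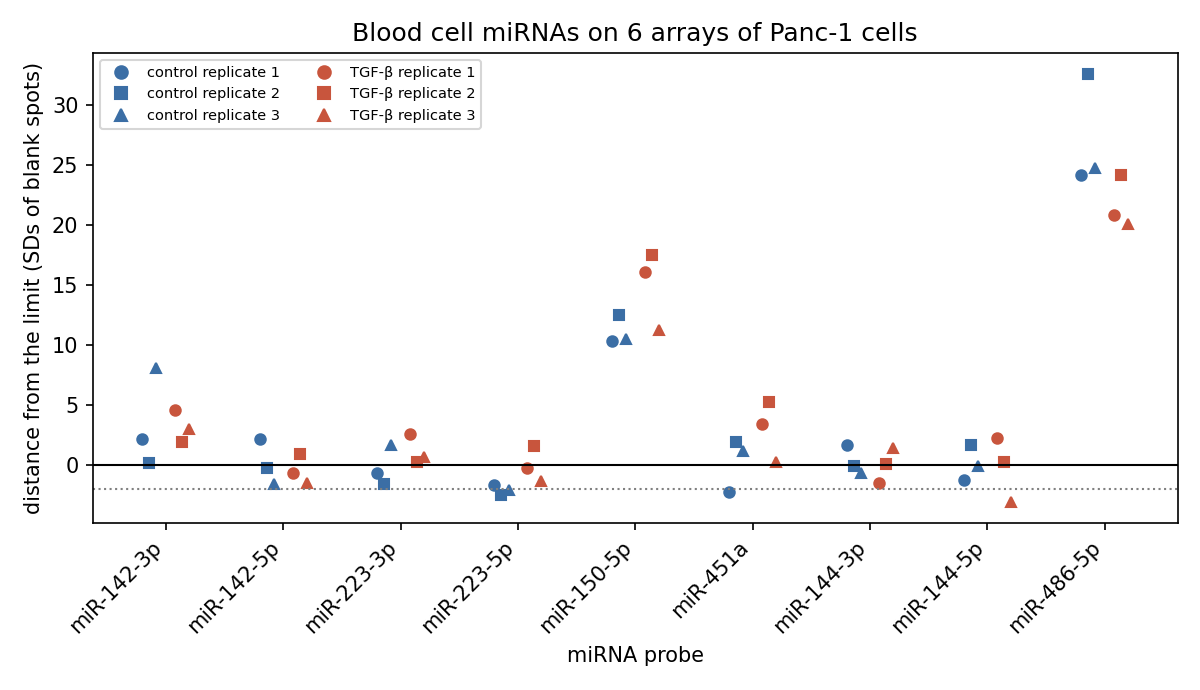
Distance of each blood cell miRNA from the detection limit, in SDs of the blank spots, on each of the 6 arrays; each point is 1 array, the solid line at 0 is the limit and the dotted line is the mean of the blank spots. miR-486-5p (20.1 to 32.6 SDs) and miR-150-5p (10.3 to 17.5 SDs) lie far above the limit on every array, and the points of the other 7 members lie between -3.05 and 8.08 SDs.

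Other spots of the arrays show what a signal a few SDs above the blank spots is worth. Besides the blanks, each array held 85 positions listed as No Probe and 3 kinds of negative control, whose sequences the files do not give. Between 17.6% and 28.2% of the No Probe positions exceeded the limit on an array, compared with 5.63% to 7.81% of the blank spots themselves. Of the 16 spots listed as Negative Control 1, between 12 and 16 exceeded the limit, and their median on each array was 3.47 to 4.82 SDs above the blank mean. Negative Control 3 had medians of 1.95 to 3.13 SDs above the blank mean over its 8 spots, and Negative Control 2 had medians of 0.0139 to 1.12 SDs.

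Set against Negative Control 1, miR-150-5p and miR-486-5p were brighter than every one of its spots on all 6 arrays, as were 31.2% to 41.6% of all miRNA probes on an array. Of the other members, miR-142-3p was brighter than all of them on control array 3 and miR-451a on TGF-β array 2, which makes 2 to 3 of the 9 members on an array. On the remaining arrays between 2 and 16 of the 16 spots were as bright as miR-142-3p and between 3 and 16 as bright as miR-451a. For miR-223-3p the count was 6 to 16, for miR-144-5p 8 to 16, and for miR-142-5p, miR-144-3p and miR-223-5p 11 to 16. Up to 3 of the 85 No Probe positions were as bright as miR-150-5p or miR-486-5p on an array.

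With a limit of 2 SD above the mean of the Negative Control 1 spots, an alternative chosen after the data were seen, 2 members passed throughout a group, miR-150-5p and miR-486-5p, and 33.6% of all probes did. With a limit from the No Probe positions, chosen in the same way, 3 members passed, the same 2 with miR-142-3p, and 47.0% of all probes did. miR-150-5p and miR-486-5p passed on all 6 arrays with 7 of the 8 ways of taking the signal and the limit. The exception was the signal minus the spot's local background, set against the blank spots treated alike, with which 22.1% of all probes passed. With it miR-486-5p was above the limit on 2 control and 3 TGF-β arrays, at -3.04 to 15.0 SDs, and miR-150-5p on 0 control and 3 TGF-β arrays, at -2.14 to 3.83 SDs. On at least 5 of the 6 arrays, each of the other 7 members was no brighter than the brightest Negative Control 1 spot, so that its presence was not distinguishable from that background at this precision.

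**Figure D2:**
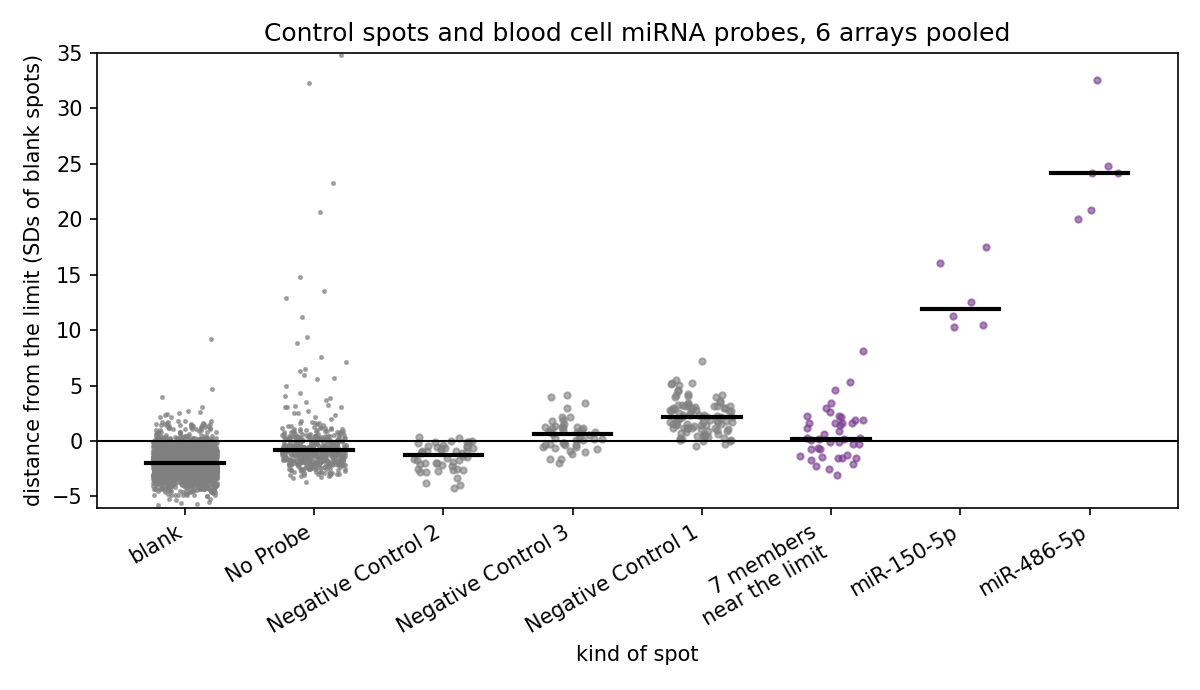
Distance from the detection limit, in SDs of the blank spots, for blank spots, No Probe positions, the 3 kinds of negative control and the blood cell miRNAs, with the 6 arrays pooled; each point is 1 spot on 1 array, horizontal bars are medians and 2 No Probe spots lie above the top of the axis. The 7 members near the limit have a median of 0.226 SDs, between those of Negative Control 2 (-1.25) and Negative Control 1 (2.14), while miR-150-5p (11.9) and miR-486-5p (24.2) lie above the negative controls.

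The array also held the other arms of 2 members and the miRNAs that share the erythroid cluster, 5 partners in all. miR-486-3p, the other arm of the miR-486 precursors, was detected on all 6 arrays at 4.42 to 9.11 SDs above the limit, and miR-150-3p, the other arm of miR-150, at 2.14 to 5.29 SDs. Both arms of miR-486 and miR-150 were therefore above the limit on every array, which held for 0 of the miR-142, miR-223 and miR-144 precursors. Of all probes, 50% were above the limit on all 6 arrays. The share of all precursors with both arms above it was not counted. Up to 2 of the 16 Negative Control 1 spots were as bright as miR-486-3p and up to 6 as bright as miR-150-3p.

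Within the erythroid cluster, MIR4732 lies on chromosome 17 from 28861655 to 28861730, at 36 bp from MIR144. Its 5p arm, miR-4732-5p, was the exception in the cluster. It lay above the limit by 119, 138 and 146 SDs in control cells, and by 131, 192 and 204 SDs after TGF-β, with signals of 97.4 to 161 intensity units. Its 3p arm, miR-4732-3p, was at -1.19 to 3.57 SDs and was detected on 5 arrays. miR-451b, which overlaps MIR451A, was detected on 0 of the 6 arrays, at -3.42 to -0.934 SDs. The mature arms of MIR4732 are shown for their base composition, with the seed in capitals.
miR-4732-5p: uGUAGAGCagggagcaggaagcu
miR-4732-3p: gCCCUGACcuguccuguucug
In this cluster, the arms of miR-144 and miR-451a lay within -3.05 to 5.30 SDs of the limit while miR-4732-5p was 119 SDs or more above it on every array. Signals of different probes do not compare as amounts of RNA, so each distance speaks only of its own probe and the blank spots.

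A list of 10 miRNAs of liver, neurons, heart and pluripotent cells gave a second set that a pancreatic line is not known for. Of these, 1 was detected on every array of a group, miR-499a-5p, a miRNA of heart and slow muscle, at 4.99 to 13.0 SDs above the limit on all 6 arrays, with an adjoining spot of 2529 to 3853 units whose part was not tested. The other 9 failed the rule, and the median distance over the list was -0.759 SDs, compared with 0.435 SDs over the blood cell miRNAs and 1.57 SDs over all probes. All 10 of a list of miRNAs abundant in most cultured carcinoma lines, such as miR-21-5p, let-7a-5p and miR-31-5p, were detected on every array, at 302 SDs or more above the limit.

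The 6 members whose sequences are shown had a GC content of 30% to 40.9%, compared with a median of 52.2% over the 2253 miRNA probes that matched a RefSeq sequence. miR-150-5p, miR-451a and miR-486-5p were not among these probes, so the comparison leaves out both members far above the limit. Over these probes, the share detected throughout a group rose with GC content in each step, from 12.9% of 70 miRNAs under 30% GC to 89.9% of 228 miRNAs at 70% GC and over. In the bin from 30% to below 40% GC, which holds miR-142-3p, miR-142-5p, miR-144-3p and miR-144-5p, 28.9% of 329 miRNAs were detected, and 1 of these 4 members was. In the bin from 40% to below 50%, which holds both arms of miR-223, 40.3% of 524 were detected, and 1 of these 2 was. miR-4732-5p had a GC content of 56.5% and miR-4732-3p of 61.9%, in bins with 60.8% and 83.8% detected. These shares are a description across probes that share the same arrays, and the part of base composition in the signals was not tested.

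**Figure D3:**
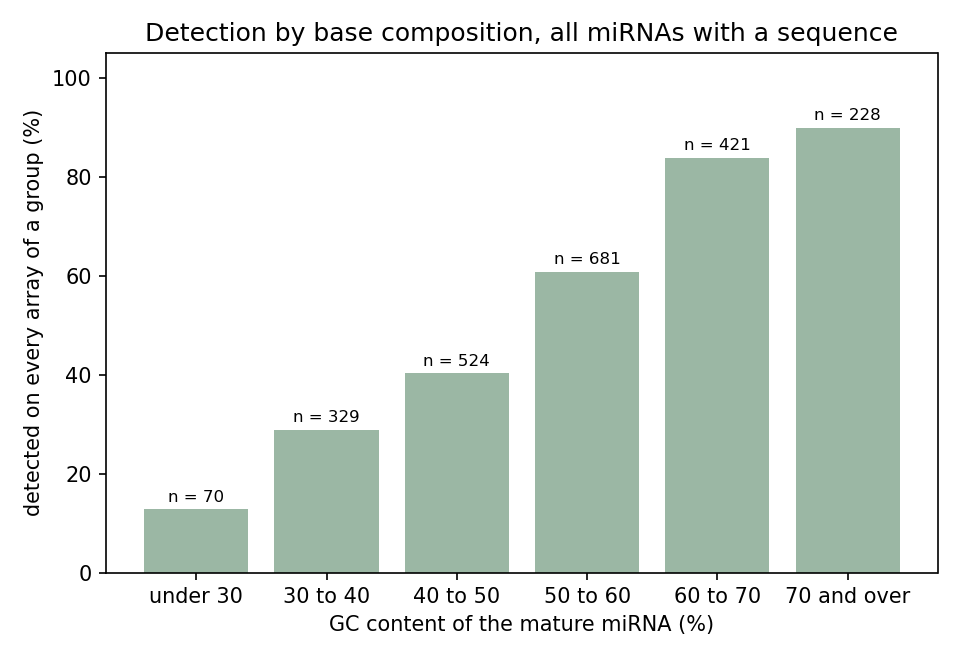
Share of miRNAs detected throughout at least 1 group (%), by GC content of the mature miRNA (%), for the 2253 miRNA probes with a RefSeq sequence; n is the number of miRNAs in each bin. The share is 28.9% and 40.3% in the bins that hold the 6 blood cell miRNAs whose sequences are shown, and 89.9% at 70% GC and over.

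TGF-β-treated cells were then compared with control cells on log2 values of the signal above the blank mean, with a floor of 1 unit and quantile normalization. The fit covered the 1457 miRNAs detected on every array of a group, of which 5 were members. limma called 0 of these 5 at an adjusted p under 0.05, compared with 3.98% of all tested miRNAs (2.61% higher and 1.37% lower after TGF-β). At an unadjusted p under 0.05 there was 1 member, miR-486-5p, compared with 13.9% of all.

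miR-486-5p had normalized log2 values of 4.2, 4.52 and 4.11 in control cells, and the values after TGF-β were 4.06, 3.71 and 3.84. Every TGF-β array was below every control array, as was the case in either direction for 18.9% of all tested miRNAs, with control array 3 and TGF-β array 1 the nearest. The log2 fold change was -0.41 (standard error 0.15, limma adjusted p = 0.217). The 2-sided exact permutation test gave p = 0.1, the smallest that 3 arrays against 3 allow, where limma's unadjusted p was 0.0188. With the normexp correction on the local background, which also adds an offset of 50 units, the log2 fold change was 0.0045 (limma adjusted p = 0.993). That offset is larger than the signal of this probe on any array, and what the background and the offset each contributed was not tested. Over the 19 alternatives its adjusted p lay between 0.179 and 0.993. The partner arm miR-486-3p had a log2 fold change of 0.15 (standard error 0.17, limma adjusted p = 0.795).

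miR-150-5p had normalized log2 values of 3.13, 3.27 and 3.00 in control cells and 3.68, 3.31 and 3.17 after TGF-β, with the groups overlapping. Its log2 fold change was 0.25 (standard error 0.16, limma adjusted p = 0.560), and miR-150-3p had 0.26 (standard error 0.24, limma adjusted p = 0.714). For miR-451a it was 0.66 (standard error 0.45, limma adjusted p = 0.576), for miR-223-3p 0.45 (standard error 0.51, limma adjusted p = 0.792) and for miR-142-3p 0.02 (standard error 0.50, limma adjusted p = 0.997). miR-451a and miR-223-3p entered this fit through the TGF-β arrays alone, so that the detection rule favours a value above 0 for them. miR-451a was at the floor on control array 1 and miR-223-3p on control arrays 1 and 2, so their fold changes also depend on the floor. miR-4732-5p had a log2 fold change of 0.24 (standard error 0.13, limma adjusted p = 0.447). None of these differences passed the adjusted threshold, and the remaining 4 members, which failed the detection rule, were not part of this test. In a fit without that rule over all 2565 probes, their log2 fold changes were -0.44 for miR-142-5p, 0.34 for miR-223-5p, -0.17 for miR-144-3p and -0.01 for miR-144-5p, with limma adjusted p of 0.811 or above. The same fit gave a limma adjusted p of 0.811 for miR-451a and of 0.929 for miR-223-3p. Each of the 4 members that failed the rule was at the floor on some arrays, miR-223-5p on all control arrays. Their fold changes therefore depend on the floor.

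**Figure D4:**
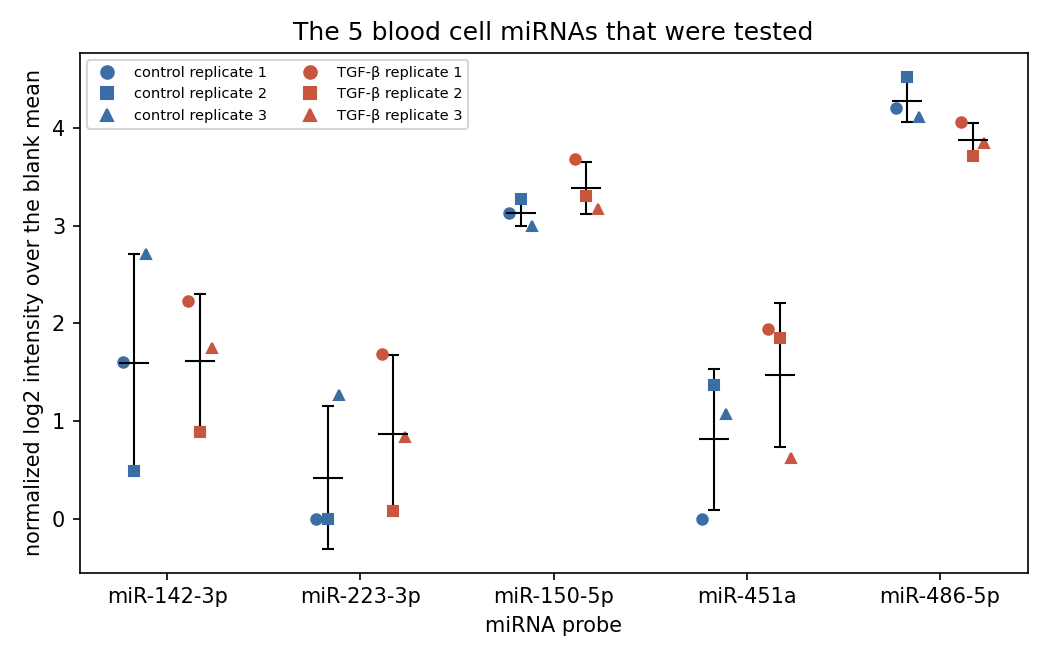
Normalized log2 intensity above the blank mean of the 5 blood cell miRNAs that were tested, on 3 control and 3 TGF-β arrays; points are arrays, horizontal marks are group means and bars are SDs (n = 3). The arrays of the groups are apart for miR-486-5p (4.11 to 4.52 in control cells, 3.71 to 4.06 after TGF-β) and overlap for the other 4.

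For the 3 members detected on all 6 arrays, the miRNAs with the most similar pattern over the 6 arrays were looked up among the other 1281 miRNAs detected on all of them, by Pearson's r of the normalized log2 values. For miR-486-5p they were miR-500b-3p (r = 0.980), miR-195-5p (r = 0.979) and miR-9500 (r = 0.944). For miR-150-5p they were miR-8087 (r = 0.961), miR-411-5p (r = 0.961) and miR-494-5p (r = 0.954), and for miR-142-3p miR-4685-5p (r = 0.977), miR-1227-3p (r = 0.973) and miR-520g-5p (r = 0.969). With 6 arrays and 1281 candidates such values describe these arrays only. The arms miR-486-3p and miR-150-3p were candidates and were not among the closest. miR-142-5p was not detected on all 6 arrays and so could not be a candidate.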

How the data were processed

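The authors labelled total RNA with Cy5, hybridized it to Toray 3D-Gene miRNA arrays and deposited, per the file headers, the scanner's median intensity of each of 3200 spots and of its local background, unnormalized and linear. The deposited table of processed intensities was rebuilt from the scanner files within rounding on all 6 arrays: the trimmed blank mean was subtracted, the median of the detected miRNAs was scaled to 25, and entries that did not exceed the limit (blank mean + 2 SD) stayed empty.

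The comparison used R 4.3.3 with limma 3.58.1 (lmFit, eBayes with trend, Benjamini-Hochberg over 1457 miRNAs), and Python 3.11.15. The blank mean was the background because the local background rose with the spot's own signal in earlier results of these data. The procedure was tested on simulated data in which only probes several blank SDs above the blank mean were changed, so changes in dimmer probes were not covered. The 9 members, the lists and the tests were chosen with earlier results of these data known. All members, partners detected in a group and the 3 closest patterns were named. Alternatives concerned the blank spots, limit, background, floor, normalization, filter, test, block and each array left out. The number of arrays limits the precision.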

Additional observations from a re-analysis of the deposited data

How the results depend on the processing

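The count of 5 members detected on every array of a group was 3 with all blank spots, with their median and absolute deviation, with the blank spots of the same block, with 3 SD, with the No Probe limit and when all 6 arrays were required. Of all probes, 52.0%, 52.9%, 55.2%, 50.2%, 47.0% and 50% passed in that order, compared with 56.8%. The same-block limit kept miR-451a and not miR-142-3p, and the others that gave 3 did the reverse. The count was 2 with the local background subtracted or with Negative Control 1. It was 9 (2043 of 2565 probes) when 1 array was enough and 5 to 6 (1476 to 1540) with each array left out. The mean distance of miR-142-3p (3.32 SDs) became -1.37 with the local background and -1.39 with the Negative Control 1 limit, and that of miR-451a (1.64) became -1.70 and -2.36. In the same order, miR-150-5p (13.0) became 0.148 and 5.36, and miR-486-5p (24.4) became 3.65 and 13.1. Each distance is in SDs of the spots that set its limit. That of miR-223-3p (0.477) became -0.0992 with all blank spots, -0.0325 with their median, -0.134 within the block, -2.78 with the local background, -0.523 with 3 SD, -0.863 with No Probe spots and -3.24 with Negative Control 1. The cause was not tested.

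0 members were called in the planned analysis and in all 19 alternatives, of which miR-223-3p and miR-451a entered 17. The log2 fold change of miR-142-3p (0.02) was -0.024 with normexp on the local background and an offset of 50, -0.019 without background correction and -0.13 with a floor of 5, and ranged from -0.54 to 0.57 when single arrays were left out, below 0 without control array 2 or TGF-β array 1 or 3. miR-223-3p (0.45) was -0.14 in the deposited values, and with a floor of 5 it and miR-451a were at the floor. With normexp and its offset of 50, miR-451a was -0.0061 and miR-486-5p 0.0045. miR-150-5p (0.25) was above 0 in all 19, at 0.05 with normexp and that offset, 0.09 without background correction and 0.11 without TGF-β array 1. The same 2 corrections gave 0.08 and 0.05 for miR-223-3p, and no correction gave 0.10 for miR-451a and -0.19 for miR-486-5p (-0.41). miR-223-3p was 0.05 without TGF-β array 1, 0.25 and 0.24 without control array 1 or 2, and 0.83 and 0.82 without control array 3 or TGF-β array 2. miR-451a was 0.25 without control array 1, 0.43 without TGF-β array 1 and 1.07 without TGF-β array 3. Over all miRNAs the 58 calls (38 higher, 20 lower) became 0 with normexp and that offset, 30 with a floor of 5, 31 in the deposited values (27 higher, 4 lower), 35 without normalization (27 higher, 8 lower), 19 without a filter, 32 without the trend and 17 with the methods' t-test, and 25 to 51 with each array left out (35 without control array 2, 25 without TGF-β array 2 and 33 without TGF-β array 3). The replicate number as a block gave 60 calls and 0 members. Same-numbered arrays had correlated deviations of 0.129, 0.112 and -0.0274, so the numbers were not taken as pairs.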
